A study of Mus musculus with 4 samples.

Results

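Conventional CD4 T cells are the CD4 T cells that do not express Foxp3, the regulator that defines regulatory T cells. They were taken from single-cell transcriptomes of mouse prostate tumours by the UMIs (counted transcript molecules) of 7 genes. A cell was a member with at least 2 UMIs over the CD3 chain genes Cd3d, Cd3e and Cd3g, at least 1 UMI of Cd4, and none of Foxp3, Cd8a or Cd8b1. The rule found 136 members among 3381 retained cells, which is 4.02% of all cells and 13.2% of the 1030 cells with a CD3 sum of at least 2. The cells were thus selected on the measured UMIs of these 7 genes, whose values are description only.

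The tumours came from mice of 2 genotypes with 2 libraries each. TKO tumours carried Nkx3.1CreERT2 with the alleles PtenL/L, Smad4L/L and Pygo2L/L, and DKO tumours carried Nkx3.1CreERT2 with PtenL/L and Smad4L/L. All mice received tamoxifen. The Cre is under the control of Nkx3.1, a gene of the prostate epithelium, so T cells are not the cells in which the alleles were meant to be deleted. Pygo2 encodes a chromatin reader of Wnt signalling, and it was detected in members of both genotypes, at 6.42 and 7.41 CPM (the gene's UMIs scaled by all UMIs of the summed cells) in TKO libraries and 9.54 and 16.4 CPM in DKO libraries, from 2 to 5 UMIs per library. The design text names 10 and 17 weeks after tamoxifen without tying a library to either, so time and genotype cannot be told apart where the libraries differ. Nothing in the labels says whether the 2 libraries of a genotype are from different mice; the p-values here reflect library-to-library spread alone, and that spread may be technical.

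CD4 T cells recognise peptides on MHC class II molecules and act mainly by helping other cells. They express CD40 ligand and other members of the TNF family at their surface, release cytokines, and can take on states named after their cytokines, such as type 1 (interferon-gamma, T-bet), type 2 (interleukin-4, GATA3) and type 17 (interleukin-17). Foxp3-negative CD4 cells are set apart here from cytotoxic CD8 T cells and from Foxp3 T cells, which restrain the other types.

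The members were 41 and 66 cells in TKO libraries 1 and 2, and 13 and 16 cells in DKO libraries 1 and 2. They held 622644 and 674850 UMIs in TKO libraries and 209631 and 243697 UMIs in DKO libraries. The median depth per member was 11780 and 9602.5 UMIs in TKO libraries, against 12409 and 11828 UMIs in DKO libraries. TKO sums were thus deeper in total, while single cells had like depth. No cell barcode was shared between libraries. Every member carried its own library's hashtag as the most abundant of the hashtags, with the next at most 5.50% of it.

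Most members lay well inside the CD3 and CD4 thresholds. The CD3 sum had a median of 15 UMIs and was exactly 2 in 3 members. Cd4 had a median of 3 UMIs, and it was exactly 1 in 25 members, 2 in 30 and at least 3 in 81. Just outside, 8 cells had a CD3 sum of 1, 13 cells had 1 UMI of Foxp3 and 7 cells had 1 UMI of Cd8a or Cd8b1, and they met the rest of the rule. Among 1060 neutrophils, which lack these genes, 0.377% had a Cd4 UMI and 18.1% had a CD3 UMI, at a median depth of 7025 UMIs against 10767 in members. A further 443 cells met the CD3, Foxp3 and CD8 conditions without a Cd4 UMI. Of these, 302 had a UMI of a gamma-delta T cell receptor gene (Trdc, Tcrg-C1, Tcrg-C2 or Tcrg-C4).

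The markers that go with the label were present. Trac, the constant part of the T cell receptor alpha chain, was detected in 125 of the 136 members. Cd28, the receptor for the main costimulatory signal, was detected in 116 members, S1pr1, the receptor that guides T cells out of tissue, in 84, Tnfsf8, the CD30 ligand, in 76, and Slamf6, a receptor of less differentiated T cells, in 58. These shares are 85.3%, 61.8%, 55.9% and 42.6% of members. In neutrophils without a CD3 UMI (median 7022 UMIs) Cd28 was detected in 0.922%, S1pr1 in 2.88% and Slamf6 in 0.461% of cells, and Tnfsf8 likewise in few. All 4 were detected in members far above this background.

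Large counts of other cell types' transcripts were in few members, while low counts were spread over many. A UMI of the fibroblast list (Col1a1, Col1a2 and Dcn) was found in 117 of the 136 members, and of the neutrophil list in 101. Lyz2, a gene of macrophages and neutrophils, gave 905 and 8 UMIs in members of TKO libraries 1 and 2, and 356 and 5 UMIs in members of DKO libraries 1 and 2. In TKO library 1, 653 of them were in 1 cell, and in DKO library 1, 354 were in 1 cell. Dcn, a gene of fibroblasts, had 91.1% of its UMIs in 1 cell in TKO library 1, and 93.7% and 87.4% in 1 cell each in the DKO libraries. Doublets were not removed. Leaving out the 6 members with most of these transcripts (an alternative chosen after seeing the data) kept 37, 66, 12 and 15 cells in TKO libraries 1 and 2 and DKO libraries 1 and 2. A wider alternative left out every member with 2 or more UMIs of other cell types and kept 116 cells. The macrophage marker Adgre1, the B cell marker Ms4a1, the NK marker Ncr1 and the epithelial marker Krt5 were at 0 in all members. Each was the only gene at 0 in its list. A UMI of the macrophage and monocyte list was found in 45 members, and of the B and plasma list in 37. For the NK list it was 38 members, and for the epithelial list 43.

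Members made up a larger share of cells in both TKO libraries, but the 2 TKO libraries differed more from each other than the nearest TKO and DKO libraries did. They were 3.39% of retained cells in TKO library 1 (exact 95% binomial interval 2.45 to 4.58) and 8.28% in TKO library 2 (6.46 to 10.4). In both DKO libraries they were 2.11% (1.13 to 3.58 in library 1 and 1.21 to 3.40 in library 2). The mean was 5.84 ± 3.46% in TKO and 2.11 ± 0.000755% in DKO (SD, n = 2 each), a difference of 3.73 percentage points. An exact two-sided permutation test gave p = 0.333, the smallest that 2 against 2 libraries allow. Without TKO library 2 the difference was 1.29 points, and without TKO library 1 it was 6.17 points. The binomial intervals cover counting error only.

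The share within T cells gave the same order with more overlap in its intervals. Members were 11.5% and 23.0% of T cells in TKO libraries, against 9.92% and 6.23% in DKO libraries. The difference was 9.20 points (exact permutation p = 0.333). When each cell was thinned to 2000 UMIs, which left out 96 shallower cells, the shares of T cells were 7.25% and 15.1% in TKO libraries and 13.8% and 4.85% in DKO libraries. The genotypes then overlapped, with a difference of 1.86 points (exact permutation p = 0.667). Likewise, thinned shares of retained cells were 1.69% and 4.31% in TKO libraries and 1.83% and 1.08% in DKO libraries. The member rule was applied anew to the thinned UMIs, in a single draw. A Foxp3 T cell with Cd4 could thus become a member by losing its Foxp3 UMIs. A member could likewise drop out by losing its Cd4 UMIs. Members after thinning were 20 and 33 cells in TKO libraries and 11 and 8 cells in DKO libraries. Neither thinned share separated the 2 genotypes, and how much of this came from changed membership was not tested.

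**Figure D1:**
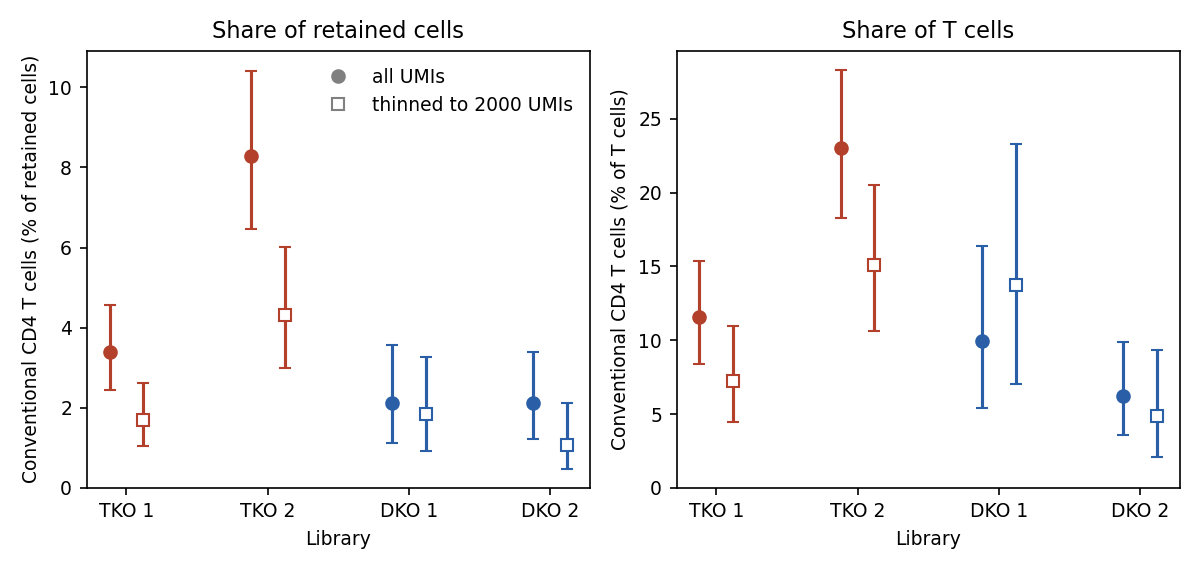
Conventional CD4 T cells as a percentage of retained cells (left) and of T cells (right) in each library, TKO in red and DKO in blue. Filled circles use all UMIs, open squares use cells thinned to 2000 UMIs, and bars are exact 95% binomial intervals; TKO library 2 is highest in every series, and after thinning DKO library 1 lies above TKO library 1.

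Set against the other T cells, members were more numerous in TKO library 2. There were 1.08 and 3.30 members per Foxp3 T cell in TKO libraries, against 0.542 and 0.533 in DKO libraries. There were 0.301 and 0.971 members per CD8 T cell in TKO libraries, against 0.542 and 0.271 in DKO libraries. The ratio to Foxp3 T cells was higher in both TKO libraries, and the ratio to CD8 T cells overlapped between genotypes. Shares also depend on the enzymatic dissociation and the Annexin V removal of dying cells, which all libraries went through.

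Members were next set against CD8 T cells and Foxp3 T cells of the same 4 libraries, to show where they differ from the T cells most like them. CD8 T cells were 287 cells with the same CD3 threshold, a Cd8a or Cd8b1 UMI and no Cd4 or Foxp3 UMI. Foxp3 T cells were 112 cells with a Foxp3 UMI and no CD8 UMI. UMIs were summed per library and type, and edgeR's quasi-likelihood test was fitted with the library as a block. Both comparisons rest on the same sums of members. Of 7521 genes tested, 168 passed an adjusted p of 0.05 against CD8 T cells (2.23%), 123 higher (1.64%) and 45 lower (0.598%) in members. Against Foxp3 T cells 536 genes passed (7.13%), with 4.06% of genes higher and 3.07% lower. The number of calls depended on the libraries. Against CD8 T cells it was 61 without DKO library 2, 64 without TKO library 2 and 109 without TKO library 1, and against Foxp3 T cells it was 203 without TKO library 1, 317 without TKO library 2 and 329 without DKO library 2. Without the 6 members rich in Lyz2 or stromal transcripts it was 371 against CD8 T cells and 853 against Foxp3 T cells, and without members holding 2 or more UMIs of other cell types it was 237 and 574. Both alternatives took cells from the members only, and the CD8 and Foxp3 T cells stayed the same. In CD8 and Foxp3 T cells the fibroblast list summed to 2348 and 3762 CPM, and the macrophage and monocyte list to 1333 and 104 CPM. How far this changed the counts was not tested.

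Genes of costimulation and help were the clearest group higher in members than in CD8 T cells. Of 14 listed genes 13 were tested and 7 were higher, a median log2 fold change of 1.28 against -0.02 over all genes tested. Tnfsf8 (ENSMUSG00000028362, mm10 chromosome 4, 63831308 to 63861347) was at 405 and 680 CPM in members of TKO libraries and 420 and 378 CPM in members of DKO libraries. In CD8 T cells it was at 33.6 and 45.7 CPM in TKO libraries and 20.4 and 56.6 CPM in DKO libraries. The members' 4 values lay above all those of CD8 T cells, with a log2 fold change of 3.58 ± 0.28 (SE).

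Cd40lg (ENSMUSG00000031132, mm10 chromosome X, 57212143 to 57224042) encodes CD40 ligand, through which helper T cells activate B cells and dendritic cells. It was at 70.7 and 107 CPM in members of TKO libraries and 85.9 and 69.8 CPM in members of DKO libraries. CD8 T cells had 2.62 and 14.2 CPM in TKO libraries and 22.4 and 5.14 CPM in DKO libraries. Foxp3 T cells had 1.45 and 18.0 CPM in TKO libraries and 0 and 9.48 CPM in DKO libraries. The members' values did not overlap those of either type. Set against CD8 T cells it had a log2 fold change of 3.29 ± 0.55 (edgeR adjusted p = 0.0116) and 3.72 ± 0.65 against Foxp3 T cells (adjusted p = 0.00648). The call over CD8 T cells was lost without TKO library 2 or DKO library 2 (adjusted p up to 0.0908), and that over Foxp3 T cells held with each library left out.

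Other genes of this group followed. Tnfrsf4, the costimulatory receptor OX40, averaged 391 ± 133 CPM in members and 27.0 ± 19.2 CPM in CD8 T cells (SD, n = 4 libraries each), a log2 fold change of 3.85 ± 0.38. Slamf1, a receptor at T cell contacts, averaged 111 ± 9.10 CPM in members and 25.9 ± 13.6 CPM in CD8 T cells, a log2 fold change of 2.28 ± 0.29. The edgeR adjusted p was 0.00137 and 0.00222, and both calls held with each library left out. Icos, a costimulatory receptor, Tnfsf11, the ligand RANKL, and Cd2, an adhesion receptor, had log2 fold changes of 1.28 ± 0.24, 2.58 ± 0.39 and 0.95 ± 0.17. These 3 lost the call without at least 1 library, with adjusted p up to 0.185, 0.0917 and 0.118. The markers Cd28, S1pr1 and Slamf6 did not pass the test against CD8 T cells: their log2 fold changes were 0.44 ± 0.22, 1.85 ± 0.51 and 1.41 ± 0.36 (edgeR adjusted p = 0.410, 0.125 and 0.0706). Against Foxp3 T cells, Cd40lg, Tnfsf8 and Slamf6 of this list were called higher in members, and Cd2, Tnfrsf4 and Tnfrsf9 lower. The log2 fold change was -1.34 for Tnfrsf4 and -0.62 for Cd2. The calls of Slamf6, Cd2, Tnfrsf4 and Tnfrsf9 were each lost without at least 1 library.

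Il7r had the smallest p against CD8 T cells. Il7r (ENSMUSG00000003882, mm10 chromosome 15, 9505788 to 9530176), the receptor for the survival cytokine interleukin-7, was at 549 and 470 CPM in members of TKO libraries and 572 and 488 CPM in members of DKO libraries. CD8 T cells had 150 and 162 CPM in TKO libraries and 182 and 135 CPM in DKO libraries. This was a log2 fold change of 1.75 ± 0.13 (edgeR adjusted p = 0.000129). Its level in members varied little over libraries, and it did not differ detectably from Foxp3 T cells (log2 fold change -0.21 ± 0.13, edgeR adjusted p = 0.371).

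Rora and Maf, transcription factors of type 17 and other helper cells, averaged 997 ± 219 and 420 ± 84.0 CPM in members, and 326 ± 56.8 and 104 ± 32.5 CPM in CD8 T cells. The log2 fold changes were 1.61 ± 0.15 and 2.02 ± 0.22. Hif1a, the oxygen-regulated transcription factor, Odc1, the first enzyme of polyamine synthesis, Adk, the adenosine kinase, and Traf1, an adaptor of TNF receptors, were also higher, by 1.44 ± 0.16, 1.09 ± 0.12, 2.14 ± 0.20 and 1.86 ± 0.22 on the log2 scale. Plcb4, a phospholipase, and Ell2, an elongation factor, were higher by 2.82 ± 0.31 and 1.18 ± 0.14. The edgeR adjusted p of all these genes was at most 0.00137, and each call held with each library left out. Of the 123 genes higher in members than in CD8 T cells, 29 were lower than in Foxp3 T cells, Rora, Odc1 and Traf1 among them. Another 22 were higher than in both types, Adk among them. Over all genes tested, 3.07% were lower and 4.06% higher in members than in Foxp3 T cells.

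Chemokine receptors separated the types as well. Of 13 listed genes 11 were tested, and Ccr4, Ccr6 and Ccr7 were higher in members than in CD8 T cells, with a median log2 fold change of 0.63. Ccr6, which guides type 17 and regulatory T cells to mucosal ligands, averaged 55.5 ± 30.4 CPM in members and 1.35 ± 0.997 CPM in CD8 T cells, a log2 fold change of 4.91 ± 0.60. Ccr7, the receptor for lymph node homing, was at 154 and 124 CPM in members of TKO libraries and 71.6 and 41.0 CPM in members of DKO libraries, against 42.4 and 24.4 CPM in CD8 T cells of TKO libraries and 10.2 and 23.1 CPM in those of DKO libraries, a log2 fold change of 1.95 ± 0.28. The edgeR adjusted p was 0.00222 and 0.00422. Ccr6 and Ccr7 kept the call with each library left out, and Ccr4 did not (edgeR adjusted p up to 0.134).

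The interleukin-2 and STAT5 list had 5 of 13 tested genes higher in members than in CD8 T cells, with a median log2 fold change of 0.81. They were Cish, Pim1, Il2ra, Stat5a and Stat5b. Stat5b, which carries the signal of interleukin-2 and interleukin-7 receptors, averaged 486 ± 99.6 CPM in members and 194 ± 23.9 CPM in CD8 T cells, a log2 fold change of 1.32 ± 0.17 (edgeR adjusted p = 0.00237). Of the regulatory T list, 6 of 12 genes were higher in members than in CD8 T cells, Il2ra, Ctla4, Tnfrsf18, Tnfrsf4, Capg and Nrp1. Without 1 library or another, Il2ra, Ctla4 and Tnfrsf18 were no longer called (edgeR adjusted p up to 0.116, 0.0790 and 0.0550), and Tnfrsf4 kept its call throughout. Most of these genes are also induced in activated CD4 T cells.

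Genes of killing were lower in members than in CD8 T cells. All 15 tested genes of the cytotoxic list had a negative log2 fold change, with a median of -1.71, and 6 passed the test: Gzmb, Gzmk, Prf1, Nkg7, Eomes and Ctsw. Nkg7, a protein of cytotoxic granules, averaged 249 ± 88.4 CPM in members and 1003 ± 222 CPM in CD8 T cells, a log2 fold change of -2.01 ± 0.38 (edgeR adjusted p = 0.0293). Gzmb, the protease granzyme B, averaged 10.5 ± 5.53 CPM in members and 544 ± 389 CPM in CD8 T cells, a log2 fold change of -5.19 ± 0.74 (edgeR adjusted p = 0.0136). Each of the 6 calls was lost without at least 1 library, DKO library 2 among them, while the sign was kept. Klrc1, an NK receptor of CD8 T cells, and Runx3, the transcription factor that keeps the CD8 lineage, were lower by -2.93 ± 0.44 and -1.36 ± 0.21 on the log2 scale (edgeR adjusted p = 0.00506 and 0.00664). The call of Runx3 was lost without DKO library 2 (edgeR adjusted p = 0.0579). Arsb, a lysosomal sulfatase, and Abr, a regulator of small GTPases, were lower by -2.14 ± 0.20 and -1.77 ± 0.26, and both calls held with each library left out.

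Against Foxp3 T cells, Bcl2 was among the genes higher in members. Bcl2 (ENSMUSG00000057329, mm10 chromosome 1, 106538178 to 106714274), which protects cells from apoptosis, was at 792 and 490 CPM in members of TKO libraries and 606 and 423 CPM in members of DKO libraries. Foxp3 T cells had 29.0 and 57.6 CPM in TKO libraries and 50.4 and 49.3 CPM in DKO libraries. The log2 fold change was 3.66 ± 0.31 (edgeR adjusted p = 0.000301). Bcl2 averaged 578 ± 162 CPM in members and 739 ± 245 CPM in CD8 T cells, a log2 fold change of -0.33 ± 0.25 that did not pass the test (edgeR adjusted p = 0.635).

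Of the naive and memory list, 4 of 11 tested genes were higher in members than in Foxp3 T cells, with a median log2 fold change of 0.78 against -0.02 over all genes. Satb1, a chromatin organiser, averaged 753 ± 219 CPM in members and 140 ± 48.5 CPM in Foxp3 T cells, a log2 fold change of 2.53 ± 0.38. Bach2, a repressor of effector genes, averaged 785 ± 225 CPM in members and 138 ± 57.5 CPM in Foxp3 T cells, a log2 fold change of 2.54 ± 0.31. Their edgeR adjusted p was 0.00519 and 0.00191, and both held with each library left out. Tcf7, the transcription factor of memory and stem-like T cells, and S1pr1 were higher by 2.91 ± 0.57 and 3.17 ± 0.60. S1pr1 was not called without TKO library 1 or 2 (edgeR adjusted p up to 0.101), nor Tcf7 without TKO library 2 (0.0639).

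Genes of T cell receptor signalling were higher in members than in Foxp3 T cells for 5 of 16 genes tested, with a median log2 fold change of 0.46. Among them were Lat, the adaptor below the receptor, Fyn and Prkcq, kinases of the same pathway, and Trbc2, a receptor chain. Lat averaged 235 ± 39.8 CPM in members and 119 ± 27.9 CPM in Foxp3 T cells, a log2 fold change of 1.02 ± 0.17 (edgeR adjusted p = 0.00363), and its call held with each library left out. Against CD8 T cells only Cd247 of this list was higher. The genes with the smallest p against Foxp3 T cells included Ms4a4b, a membrane protein of T cells, Epb41, a protein of the membrane skeleton, Rpl13a, a ribosomal protein, and Grap2, an adaptor of T cell receptor signalling. Ms4a4b had a log2 fold change of 2.54 ± 0.19, Epb41 2.40 ± 0.19, Rpl13a 1.02 ± 0.08 and Grap2 1.83 ± 0.17.

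Some type 1 helper genes were higher in members than in Foxp3 T cells. Of the tested genes 7 were positive and 4 negative, with a median log2 fold change of 0.47. Tbx21, which encodes T-bet, Cxcr3, the receptor for interferon-induced chemokines, Il12rb2, a chain of the interleukin-12 receptor, and Ifng passed among 11 tested genes of the list, and Hopx was lower. Cxcr3 averaged 59.7 ± 23.1 CPM in members and 7.95 ± 6.53 CPM in Foxp3 T cells, a log2 fold change of 2.88 ± 0.49 (edgeR adjusted p = 0.00446). Il12rb2 averaged 79.1 ± 27.8 CPM in members and 4.54 ± 6.90 CPM in Foxp3 T cells, a log2 fold change of 4.51 ± 0.56 (edgeR adjusted p = 0.00123). Both held with each library left out, as did Tbx21, while Ifng was not called without TKO library 1 or DKO library 1 (edgeR adjusted p up to 0.125). Of the cytotoxic list 5 of 15 tested genes were higher in members than in Foxp3 T cells, Gzmk, Nkg7, Eomes, Fasl and Ctsw, with a median log2 fold change of 1.83.

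Regulatory genes were lower in members than in Foxp3 T cells, on which Foxp3 itself had divided the cells. Of 12 listed genes 9 were lower, with a median log2 fold change of -2.13. Il2ra, the high-affinity interleukin-2 receptor chain, averaged 68.7 ± 51.0 CPM in members and 450 ± 89.1 CPM in Foxp3 T cells, a log2 fold change of -2.97 ± 0.29. Ikzf4, the partner of Foxp3 called Eos, had a log2 fold change of -2.35 ± 0.33, and Tnfrsf18, the receptor GITR, -0.98 ± 0.16. The edgeR adjusted p of these 3 was at most 0.00363, and the calls held with each library left out. Ikzf2, which encodes Helios, had a log2 fold change of -2.55 ± 0.42 (edgeR adjusted p = 0.0119), and its call was lost without TKO library 1, TKO library 2 or DKO library 2 (adjusted p up to 0.0818). Tox, Nrip1 and Gata3, regulators of transcription, were lower by -1.61 ± 0.22, -1.32 ± 0.13 and -1.59 ± 0.24, and each held with each library left out. Rora was higher in members than in CD8 T cells and lower than in Foxp3 T cells (-0.83 ± 0.15, edgeR adjusted p = 0.00656).

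**Figure D2:**
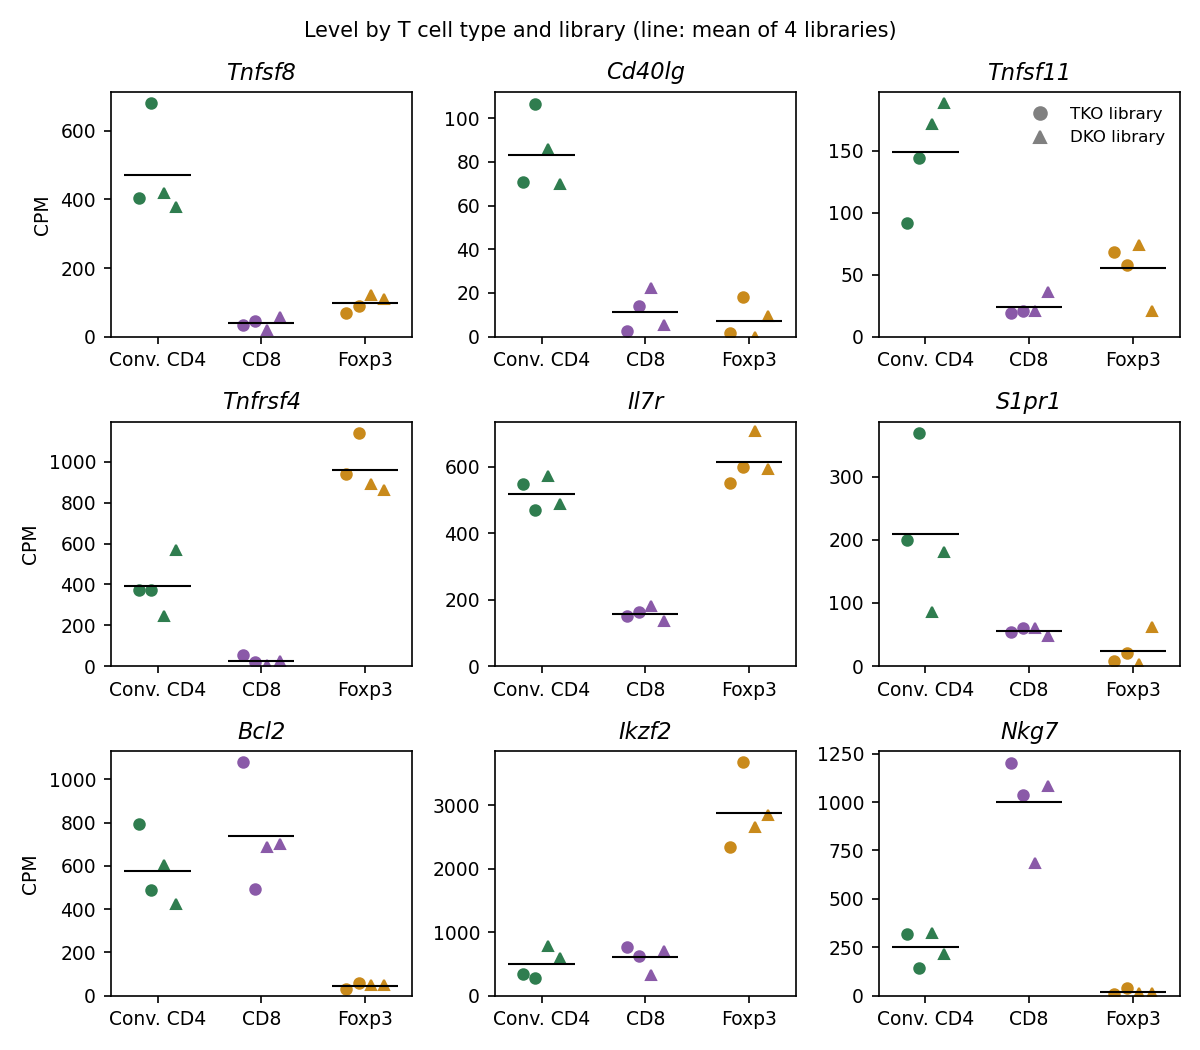
CPM of 9 genes in conventional CD4, CD8 and Foxp3 T cells, 1 point per library (circles TKO, triangles DKO), with a line at the mean of 4 libraries. Tnfsf8 and Cd40lg are highest in conventional CD4 T cells in every library, Il7r averages 520 CPM in conventional CD4 and 614 CPM in Foxp3 T cells, Bcl2 averages 578 CPM in conventional CD4 and 739 CPM in CD8 T cells, and Tnfrsf4 and Ikzf2 are highest in Foxp3 T cells.

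**Figure D3:**
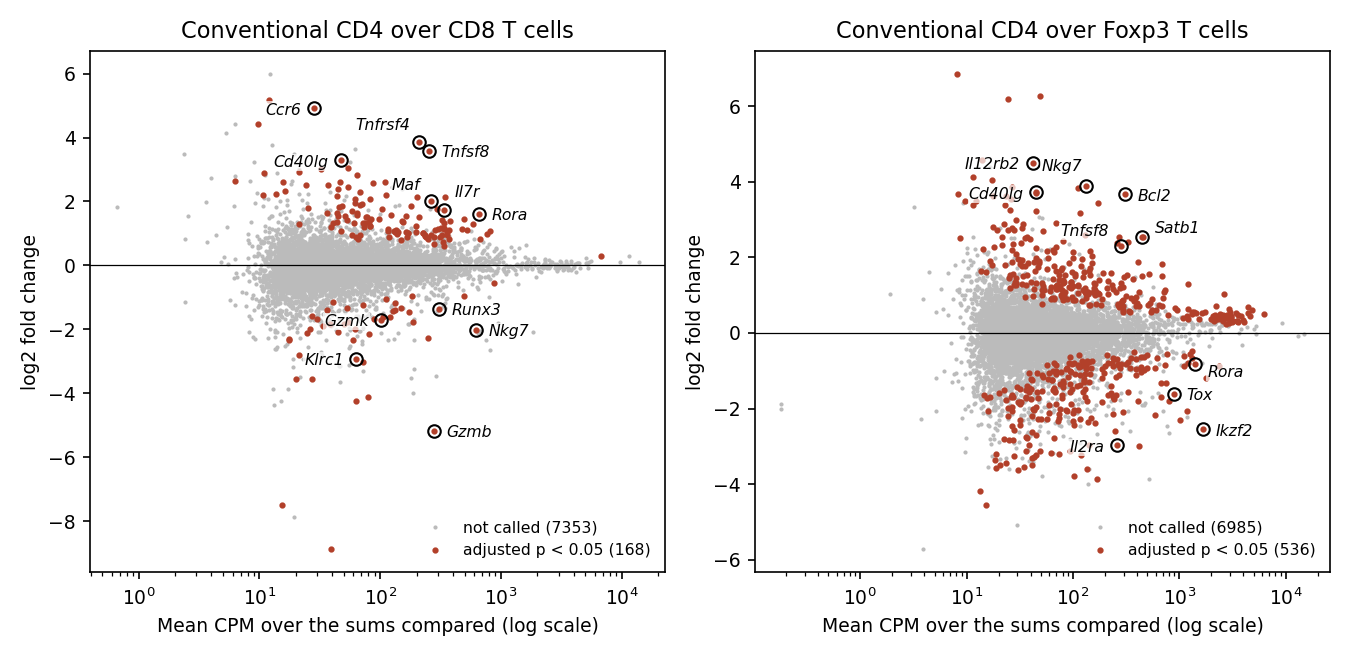
Log2 fold change of conventional CD4 T cells over CD8 T cells (left) and over Foxp3 T cells (right), against the mean CPM of the sums compared on a log axis, 1 point per gene. Red points passed an adjusted p of 0.05, 168 genes on the left and 536 on the right, and circled genes are described in the text.

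Among the members themselves, genes of the helper lists were detected in small groups of cells. Il17a (ENSMUSG00000025929, mm10 chromosome 1, 20730905 to 20734496), the type 17 cytokine, was detected in 19 members, 14.0% of them, against 2.30% of neutrophils. The 19 cells held 249 UMIs, with 61 in the top cell. Of these cells 10 also had Ccr6 (52.6%), against 14 of the other 117 members. Il17f was detected in 6 of the 19 (31.6%), against 2 of the other 117 (1.71%). Il23r, the receptor that sustains type 17 cells, was detected in 7 of the 19. The median depth was 12514 UMIs with and 10497 UMIs without Il17a. Of the 19 cells, 11 also had a UMI of a gamma-delta T cell receptor gene, against 10 of the other 117, and these 11 held 210 of the 249 Il17a UMIs. Trdc was detected in only 3 members, 2 of TKO library 1 and 1 of DKO library 1. In all other members with a gamma-delta UMI, it was of Tcrg-C1, Tcrg-C2 or Tcrg-C4. A gamma-delta UMI was present in 51.6% of CD8 T cells, 7.14% of Foxp3 T cells and 3.46% of neutrophils. Whether the Il17a cells of the rule are CD4 helper cells or gamma-delta T cells was not tested.

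Ifng, the type 1 cytokine, was detected in 17 members, against 0.230% of neutrophils. It was detected in 2 of the 19 members with Il17a (10.5%), against 15 of the other 117 (12.8%). Tbx21 was detected in 9 of the 17 (52.9%), against 24 of the other 119 (20.2%), and Cxcr3 in 9 of the 17, against 41 of the other 119 (34.5%). Ifng was detected in 3, 10, 4 and 0 members of TKO libraries 1 and 2 and DKO libraries 1 and 2. Type 2 cytokines were rare: Il4 was detected in 5 members and Il13 in 1. Il21, the cytokine of follicular helper cells, was at 0 in all members, and Cxcr5, their homing receptor, was detected in 1, against 12.4% of neutrophils. A count of 0 limits the cells with a UMI and not the cells that express the gene.

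S1pr1 was detected in 84 members, and 69 of these also had Klf2, its activator (82.1%), against 29 of the other 52 (55.8%). Klf2 was also detected in 67.5% of neutrophils, so its detection is not particular to T cells. Ccr7 was detected in 40 members (29.4%), against 3.11% of neutrophils. Cxcr6, a receptor of tissue T cells, was detected in 56 members (41.2%), against 1.96% of neutrophils, and Cd69, an early activation marker, in 51 (37.5%), against 14.4% of neutrophils. Cxcr6 was detected in 30 of the 84 members with S1pr1 and in 26 of the other 52. Itgae, the integrin of epithelial residence, was detected in 11 members.

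The inhibitory receptor Pdcd1, which encodes PD-1, was detected in 64 members (47.1%), against 2.65% of neutrophils, and all 8 members with Lag3 also had Pdcd1. CD8 T cells had Pdcd1 in 79.4% and Lag3 in 33.8% of cells, and Foxp3 T cells in 82.1% and 12.5%. These shares pool the cells of all libraries and were not tested. The inhibitory receptor list had 10 genes tested by edgeR and also holds Tox, a regulator of transcription. Of this list only Ctla4 (higher) and Cd160 (lower) passed against CD8 T cells. Against Foxp3 T cells only Havcr2 and Tox passed, both lower in members. The call of Havcr2 was lost without TKO library 2, DKO library 1 or DKO library 2 (edgeR adjusted p up to 0.127). Mki67, a gene of dividing cells, was detected in 9 members (6.62%), against 19.5% of CD8 T cells and 11.6% of Foxp3 T cells, with 3.11% in neutrophils. Of 5 tested genes of the G2 and M phase list, only Cdk1 passed against CD8 T cells, and none against Foxp3 T cells.

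**Figure D4:**
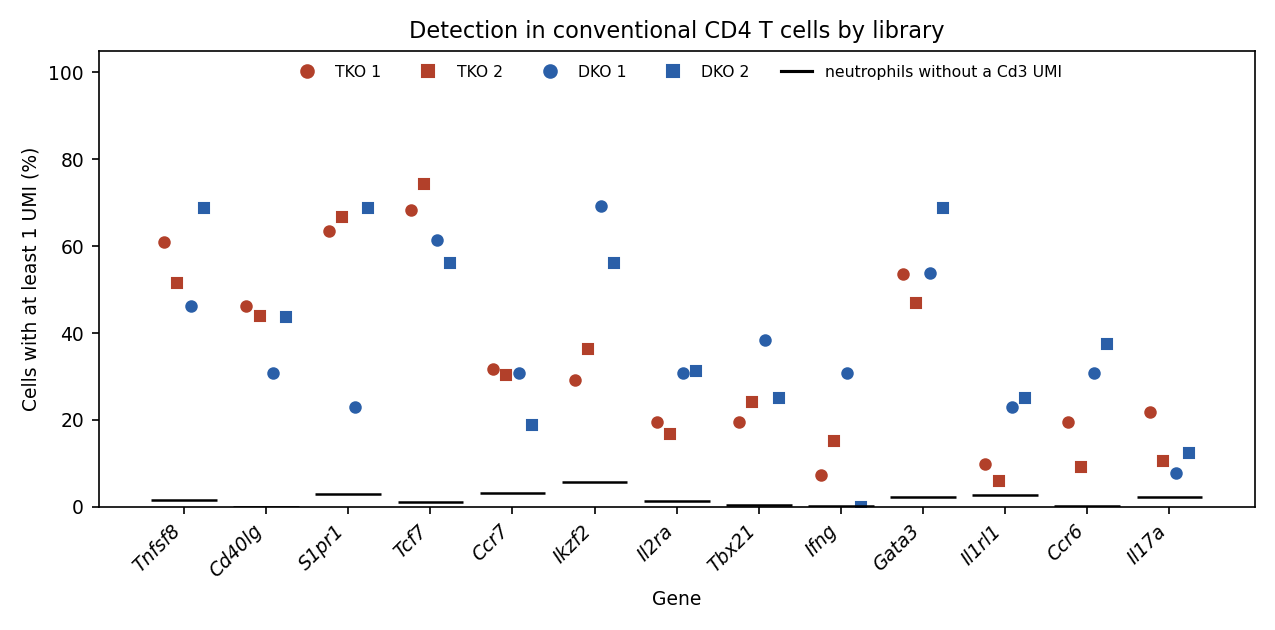
Percentage of conventional CD4 T cells with at least 1 UMI of each gene, 1 point per library (red TKO, blue DKO, circles library 1, squares library 2), with the share in neutrophils without a CD3 UMI as a black line. Ikzf2 was detected in 29.3% and 36.4% of members in TKO libraries and 69.2% and 56.2% in DKO libraries, all above the neutrophil share of 5.76%.

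The comparison of genotypes asks what differs in conventional CD4 T cells of tumours that also carried the Pygo2L/L allele. By edgeR none of 6028 genes passed an adjusted p of 0.05 between TKO and DKO members (0.0%), with 410 at an unadjusted p under 0.05. DESeq2 called 20 genes (0.332%), 1 higher and 19 lower in TKO. Its gene higher in TKO was Il17a, and most of the 19 are collagens and other stromal genes. The number of edgeR calls with a library left out was 108 without TKO library 1, 65 without TKO library 2, 70 without DKO library 1 and 73 without DKO library 2. Without a filter on low counts it was 176.

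Il17a had the smallest p on the higher side. It was at 146 and 219 CPM in members of TKO libraries and 28.6 and 16.4 CPM in members of DKO libraries. These came from 91 and 148 UMIs in 9 and 7 cells of TKO libraries, and from 6 and 4 UMIs in 1 and 2 cells of DKO libraries. The log2 fold change was 3.05 ± 0.43 (edgeR adjusted p = 0.143, DESeq2 adjusted p = 0.00916), and with a library left out the edgeR value was between 2.70 and 3.49 with an adjusted p of at most 0.00763. Detection did not follow so plainly: 22.0% and 10.6% of members had an Il17a UMI in TKO libraries, against 7.69% and 12.5% in DKO libraries. The genotypes overlapped in the share of cells and differed in the UMIs per such cell. That difference rested on few cells. The top 2 cells held 30 and 29 of the 91 UMIs in TKO library 1, and 61 and 37 of the 148 in TKO library 2. Most of the difference lay in members with a UMI of Trdc, Tcrg-C1, Tcrg-C2 or Tcrg-C4. In TKO library 2 such members held 138 of the 148 Il17a UMIs, and none of them had a Trdc UMI. Without them Il17a had 25 and 10 UMIs in members of TKO libraries and 0 and 4 UMIs in members of DKO libraries, or 52.4 and 17.5 CPM against 0 and 16.4 CPM, and it gave no test, being under the filter on low counts. Without members that held an Ikzf2 UMI its log2 fold change was 1.80 ± 0.57. The gamma-delta list summed to 263 and 37.0 CPM in members of TKO libraries and 19.1 and 0 CPM in members of DKO libraries.

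Other type 17 genes did not share one direction. Ccr6 was at 28.9 and 31.1 CPM in members of TKO libraries and 71.6 and 90.3 CPM in members of DKO libraries, a log2 fold change of -1.41 ± 0.39. Ahr, a transcription factor used by type 17 cells, was at 99.6 and 84.5 CPM in TKO and 38.2 and 16.4 CPM in DKO, a log2 fold change of 1.79 ± 0.47. Of 12 tested genes of the type 17 list 7 were positive, with a median of 0.06 against 0.01 over all genes. None passed an adjusted p of 0.05 by edgeR.

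The other genes named on the higher side were Cpm, a membrane carboxypeptidase, Fam49a, Ctse, the protease cathepsin E, Rab3ip and Ube2g1, proteins of vesicle traffic and of ubiquitin transfer, Elovl6, an enzyme of fatty acid elongation, and Ifi203, an interferon-induced gene. Cpm was at 154 and 123 CPM in members of TKO libraries and 9.54 and 32.8 CPM in members of DKO libraries, a log2 fold change of 2.67 ± 0.49. Ctse was at 108 and 124 CPM in TKO and 33.4 and 41.0 CPM in DKO, a log2 fold change of 1.64 ± 0.36. Ifi203 was at 280 and 184 CPM in TKO and 42.9 and 90.3 CPM in DKO, a log2 fold change of 1.79 ± 0.41. Cpm was detected in 23 and 26 members of TKO libraries, and in 1 and 4 members of DKO libraries, so its difference was spread over many cells. All 3 did not overlap between genotypes, which held for 17.4% of all genes on the higher side and 19.5% on the lower side, and none passed (edgeR adjusted p 0.207, 0.325 and 0.338).

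Interferon-response genes mostly had higher values in TKO members, without a call. Of 17 tested genes of the type I list 16 were positive, with a median log2 fold change of 1.22 against 0.01 over all genes. Both TKO libraries were above both DKO libraries for 11 of the 17, and for 17.4% of all genes tested. Of 15 tested genes of the interferon-gamma list 14 were positive, with a median of 0.92, and 9 had both TKO libraries above. Bst2, which holds enveloped viruses at the cell surface, was at 252 and 167 CPM in TKO and 100 and 82.1 CPM in DKO, a log2 fold change of 1.22 ± 0.33 (edgeR adjusted p = 0.462). Zbp1, a sensor of nucleic acids, was at 169 and 84.5 CPM in TKO and 33.4 and 53.3 CPM in DKO, a log2 fold change of 1.54 ± 0.47 (edgeR adjusted p = 0.537). Gbp2, a guanylate-binding protein, was at 93.2 and 59.3 CPM in TKO and 28.6 and 8.21 CPM in DKO, a log2 fold change of 2.09 ± 0.60 (edgeR adjusted p = 0.485). The summed type I list was at 3851 and 2572 CPM in TKO and 1293 and 2294 CPM in DKO, so the nearest TKO and DKO libraries were close. Genes of both lists respond to the same factors, so the lists are not independent.

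Regulatory genes leaned the other way. Ikzf2 (ENSMUSG00000025997, mm10 chromosome 1, 69531214 to 69687245) was at 336 and 282 CPM in members of TKO libraries and 787 and 591 CPM in members of DKO libraries. It was detected in 12 of 41 and 24 of 66 members in TKO libraries, and in 9 of 13 and 9 of 16 members in DKO libraries. After thinning to 2000 UMIs the shares were 19.5% and 22.7% in TKO libraries and 46.2% and 37.5% in DKO libraries, the same order. The log2 fold change was -1.14 ± 0.26 (edgeR adjusted p = 0.338). Il2ra was at 24.1 and 34.1 CPM in TKO and 81.1 and 135 CPM in DKO, a log2 fold change of -1.87 ± 0.43, and Ikzf4 was at 32.1 and 20.7 CPM in TKO and 76.3 and 65.7 CPM in DKO, a log2 fold change of -1.40 ± 0.44. Of 10 tested genes of the regulatory list 8 were negative, with a median of -0.31. Both TKO libraries were below both DKO libraries for 4 of the 10, and for 19.5% of all genes tested. None passed an adjusted p of 0.05 by edgeR. Whether members with Ikzf2 are Foxp3 T cells in which no Foxp3 UMI was caught was not tested. The summed regulatory list was at 2154 and 2018 CPM in members of TKO libraries and 2748 and 2872 CPM in members of DKO libraries, against 7914 CPM in Foxp3 T cells and 1653 CPM in CD8 T cells.

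Il1rl1 (ENSMUSG00000026069, mm10 chromosome 1, 40429570 to 40465415), the receptor for interleukin-33 on type 2 and regulatory T cells, was among the lower genes. It was at 48.2 and 29.6 CPM in members of TKO libraries and 239 and 148 CPM in members of DKO libraries. These were 30 and 20 UMIs in 4 cells each of the TKO libraries, and 50 and 36 UMIs in 3 and 4 cells of the DKO libraries. In DKO libraries 1 cell each held 27 and 31 of these UMIs, and in TKO libraries 16 and 10. The log2 fold change was -2.28 ± 0.39 (edgeR adjusted p = 0.184, DESeq2 adjusted p = 0.0315). Of all 15 members with Il1rl1, 13 also had Gata3 (86.7%), against 58 of the other 121 (47.9%), and 10 also had Ikzf2 (66.7%), against 44 of the other 121 (36.4%). The Il1rl1 cells were few, and they shared transcripts of GATA3 and Helios.

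Most other genes named on the lower side were stromal. Sparc, a matrix protein, was at 93.2 and 75.6 CPM in members of TKO libraries and 329 and 554 CPM in members of DKO libraries, a log2 fold change of -2.37 ± 0.33. Col3a1 and Col1a1, fibrillar collagens, had log2 fold changes of -2.01 ± 0.30 and -1.94 ± 0.28, and Col4a1, a basement membrane collagen, -3.88 ± 0.52. Serpinh1, a collagen chaperone, was at 16.1 and 13.3 CPM in TKO and 95.4 and 115 CPM in DKO. In the DKO libraries, 1 cell each held 81.2% and 87.4% of the Sparc UMIs. Without the 6 members rich in Lyz2 or stromal transcripts, the log2 fold change was -0.16 ± 0.35 for Sparc, -0.03 ± 0.29 for Col3a1 and 0.28 ± 0.36 for Col1a1. These 6 were picked by at least 5 UMIs of Lyz2 or 10 over Col1a1, Col1a2 and Dcn, so Col1a1 was part of the choice. Without members holding 2 or more UMIs of other cell types, the 3 values were -1.96 ± 0.82, -1.63 ± 0.68 and -1.51 ± 0.72. With at least 2 UMIs of Cd4 they were -0.11 ± 0.39, -0.14 ± 0.32 and 0.23 ± 0.38. The summed fibroblast list was at 917 and 228 CPM in members of TKO libraries and 2085 and 1165 CPM in members of DKO libraries. The stromal values of the DKO libraries thus rested mostly on 1 cell each.

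Tff1, a secreted trefoil peptide of epithelia, was also on the lower side. It was at 12.8 and 22.2 CPM in members of TKO libraries and 134 and 201 CPM in members of DKO libraries, from 8 and 15 UMIs in 2 cells each, against 28 and 49 UMIs in 3 cells each. The log2 fold change was -3.21 ± 0.42 (edgeR adjusted p = 0.143, DESeq2 adjusted p = 0.000937), and -3.46 ± 0.38 without the 6 members rich in Lyz2 or stromal transcripts (edgeR adjusted p = 0.0131), the only call in that fit. In Foxp3 T cells it was at 33.4 and 403 CPM in TKO libraries and 258 and 178 CPM in DKO libraries. The value in members rested on 10 cells in all, and 1 cell per library held 87.5% and 93.3% of the Tff1 UMIs in TKO libraries and 78.6% and 73.5% in DKO libraries.

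Memory and signalling genes gave values without a call. Tcf7 was at 143 and 203 CPM in members of TKO libraries and 71.6 and 61.6 CPM in members of DKO libraries, a log2 fold change of 1.40 ± 0.33 (edgeR adjusted p = 0.353). Ccr7 was at 154 and 124 CPM in TKO and 71.6 and 41.0 CPM in DKO, a log2 fold change of 1.34 ± 0.37 (edgeR adjusted p = 0.480). Of 16 tested genes of T cell receptor signalling 13 were positive, with a median of 0.41, and Prkcq had a log2 fold change of 1.14 ± 0.41 (edgeR adjusted p = 0.616). Itgae was at 4.82 and 13.3 CPM in TKO and 47.7 and 86.2 CPM in DKO, a log2 fold change of -2.82 ± 0.61 (edgeR adjusted p = 0.315). The Itgae values came from 3 and 9 UMIs in 3 cells each of TKO libraries, and 10 and 21 UMIs in 2 and 3 cells of DKO libraries. In TKO library 2, 1 cell held 7 of the 9 UMIs, and in DKO library 2, 1 cell held 14 of the 21. The Wnt and Pygo list, the pathway nearest to the deleted gene, had 4 of 8 tested genes positive and a median of 0.09. These Wnt genes showed no common direction between genotypes.

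**Figure D5:**
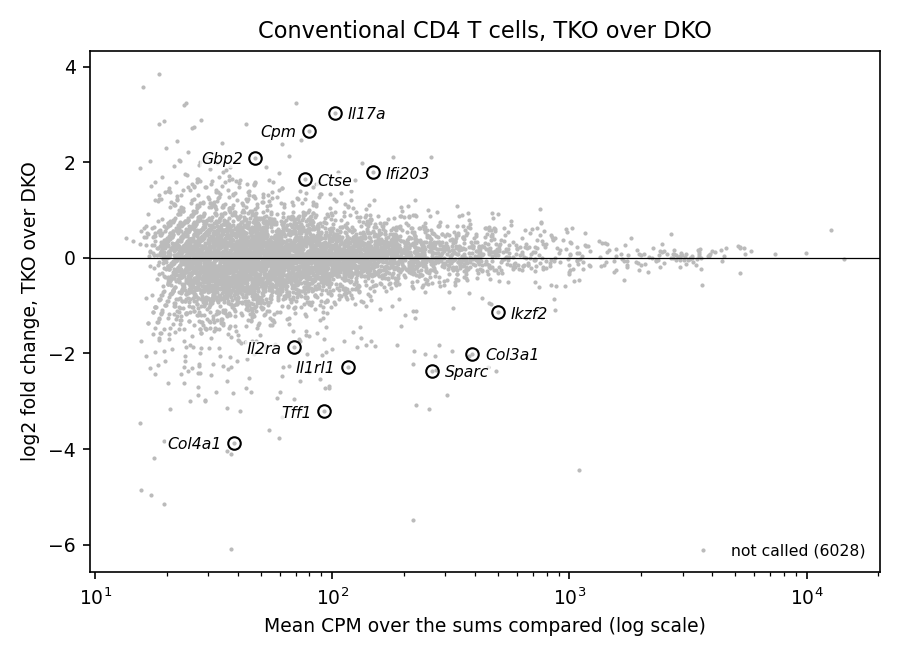
Log2 fold change of TKO over DKO in conventional CD4 T cells against mean CPM on a log axis, 1 point per gene for the 6028 genes tested. No gene passed an adjusted p of 0.05 by edgeR, and circled genes are described in the text.

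Whether the genotypes differed more in members than in other T cells was tested by the interaction of genotype and T cell type. By edgeR none of 8627 genes passed against CD8 T cells (0.0%, with 424 at an unadjusted p under 0.05), and none against Foxp3 T cells (0.0%, with 428). DESeq2 called 0 and 1. For Il17a the difference between the change in members and that in CD8 T cells was 0.15 ± 5.04 on the log2 scale, and that to Foxp3 T cells was 4.88 ± 2.11 (edgeR adjusted p = 1 and 0.945). For Ikzf2 it was -1.53 ± 0.60 and -1.28 ± 0.59 (edgeR adjusted p = 0.996 and 0.946). No difference between genotypes was thus shown to be particular to conventional CD4 T cells.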

How the data were processed

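Single-cell RNA of mouse prostate tumours was captured with the 10x 3' v3.1 chemistry, with a hashtag antibody per library. The deposited values are raw UMI counts per gene and cell, made by the authors with Cell Ranger 7.0.0 and STAR on mm10, per the submitters' processing notes. Of 3508 barcodes, 3381 were retained, which had 200 genes or more and no more than 20% of UMIs from mitochondrial genes. No ambient RNA or doublet correction was applied.

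Members, CD8 T cells and Foxp3 T cells were summed per library. edgeR 4.0.16 (R 4.3.3; TMM scaling, filterByExpr, robust quasi-likelihood test, Benjamini-Hochberg adjustment over all genes tested, threshold 0.05) compared genotypes in members, and T cell types in 1 fit with library as a block. DESeq2 1.42.0 was an alternative. The scripts were tested on simulated data. Shares carry exact 95% binomial intervals, for counting error only, and exact permutation tests over libraries; thinning was to 2000 UMIs. Alternatives changed the scaling, filter, member rule or libraries. Those of the member rule left the CD8 and Foxp3 T cells as they were.

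The members, gene lists and markers were chosen with earlier results of these data known. Named genes were those of smallest p each way (8 between genotypes, where no gene passed, and up to 10 between types), the leading genes of each list, and genes named in an earlier account of T and NK cells of these libraries. List genes such as Cd40lg, Slamf1, Cd2, Gzmb, Fasl, Tbx21, Lat, Cxcr3, Il12rb2 and Tnfrsf18 fell outside that rule and were chosen after their values were seen, as was the count of Il17a cells with a gamma-delta UMI. Some genes of the lists are not reported here.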

Additional observations from a re-analysis of the deposited data

How the results depend on the processing

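Between genotypes, edgeR called 0 genes in the members, and 0 with DESeq2's size factors, a replicate block, at least 2 UMIs of Cd4, at least 500 genes per cell, or without members holding Ikzf2 or gamma-delta UMIs. DESeq2 called 20, no filter on low counts 176, a CD3 sum of at least 3 gave 25, leaving out members with other cell types' UMIs gave 1, and leaving out those rich in Lyz2 or stromal UMIs, chosen after seeing the data, gave 1. Leaving out a library gave 65 to 108; the lone library of a genotype is then assumed to vary like the others. Col1a1 turned to 0.23 with at least 2 UMIs of Cd4, and the cause was not tested. It turned to 0.28 without the Lyz2 or stromal members, which were picked in part by Col1a1 itself.

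Over CD8 T cells the count was 264 by DESeq2, 732 with no filter, 371 without the Lyz2 or stromal members and 61 to 215 with a library left out. Over Foxp3 T cells it was 1225 with no filter, 853 without those members and 203 to 450 with a library left out. The interaction with CD8 T cells gave 110 with no filter and 0 to 4 with a library left out, and that with Foxp3 T cells 1 by DESeq2, 98 with no filter and 0 to 2.

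The difference in share of retained cells was 1.29 to 6.17 points with a library left out, and that of T cells 1.86 after thinning. The replicate numbers are not stated to pair the libraries (deviations of the 2 numbers correlated at 0.317 over 6032 genes); a replicate block gave p = 0.5 by exact permutation for both shares. With 13 and 16 DKO members, depth limits every comparison of genotypes.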
